A study of Mus musculus with 8 samples.

Results

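The 89 genes described here are the nuclear genes whose symbols begin with Ndufa, Ndufb, Ndufc, Ndufs, Ndufv, Sdha to Sdhd, Uqcr, Cox4 to Cox8 or Atp5, out of 23282 gene rows. Ndufaf genes, which encode complex I assembly factors, and pseudogene symbols were left out. By complex they comprise 36 genes of complex I, 8 of complex II, 8 of complex III, 20 of complex IV and 17 of complex V. Of the 89, 81 encode subunits. The other 8 are the complex II assembly factors Sdhaf1 to Sdhaf4, the supercomplex factor Cox7a2l, the Ndufa4 paralog Ndufa4l2, and Atp5s and Atp5sl, which are not subunits of the ATP synthase. Symbols are those of the files, so the ATP synthase genes carry their older Atp5 names.

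Messenger RNA was measured in 4 liver and 4 uterus libraries from female CD-1 mice, an outbred stock, with a 3' tag method (QuantSeq) that reads near the polyadenylated end of transcripts. Every mouse had been ovariectomized at 6 weeks of age, which removes the main source of estrogen, and was left for 1 week. The groups then received, by mouth for 7 days, 200 mg/kg/day of bisphenol A (BPA), a monomer of polycarbonate plastic with weak estrogen-like activity, or 1.2 g/kg/day of KRG (Korean red ginseng), or the 2 agents together; the control mice received neither. Each tissue and treatment has 1 library, and the labels do not say whether it holds 1 animal or a pool, nor whether both tissues came from the same animals. The comparisons are therefore liver against uterus over 4 libraries each, each agent over the 2 libraries with it against the 2 without it in a tissue, and single libraries against each other.

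Oxidative phosphorylation takes place in the inner mitochondrial membrane. Complexes I and II pass electrons from NADH and succinate to ubiquinone, complex III passes them to cytochrome c and complex IV to oxygen, and complex V uses the resulting proton gradient to make ATP. Most subunits are encoded in the nucleus, and a few in mitochondrial DNA, for which the files hold 0 rows. Hepatocytes are rich in mitochondria, whereas the uterus is built largely of smooth muscle and stroma, with an epithelial lining.

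Library totals ran from 12372073 to 15290950 counts, of which Rn45s, precursor of ribosomal RNA, made up 8.30% to 12.4%. Levels are CPM, counts scaled to a common column total. By this method a transcript should yield about 1 tag whatever its length, so CPM were also compared between genes. That assumes like capture of each gene, which was not tested. The tissue labels were checked against marker genes. The 10 hepatocyte markers summed to between 57338 and 67181 CPM in liver, against 378 to 2178 CPM in uterus, and the 10 smooth muscle markers summed to 276 to 352 CPM in liver, against 7375 to 9540 CPM in uterus. Ass1, among the hepatocyte markers, had only 1.00 to 2.54 CPM in liver. Markers of tissues outside both organs also appeared. The 10 skeletal muscle markers summed to 2.93 CPM with BPA, 529 with KRG, 1.70 with both and 194 in control in liver, and to 222, 91.3, 1788 and 112 CPM in the same treatments in uterus. The 6 urothelial markers summed to 5926 CPM with BPA, 68.1 with KRG, 10253 with both and 337 in control in uterus. The 8 adipocyte markers summed to 13051 CPM in the KRG uterus library, against 5196 to 5687 CPM in the other 3, and 10 markers of pancreatic acinar cells to 1537 CPM in the BPA liver library, against 153 to 239 CPM in the other 3. In those 3 liver libraries Cela1 made up nearly all of the acinar sum (145 with KRG, 177 with both and 238 CPM in control). Each other acinar marker was there at most 1.70 CPM, against 24.2 to 430 CPM with BPA.

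The 89 genes together took 1.96%, 2.16%, 2.03% and 2.06% of the counts in liver with BPA, KRG, both and neither, and 1.56%, 1.74%, 1.53% and 1.51% in uterus. Their summed level averaged 20524 ± 860 CPM in liver and 15838 ± 1069 CPM in uterus (SD, n = 4 each), a ratio of 1.30, and all 4 liver libraries lay above all 4 uterus libraries. The ratio differed by complex. Complex II was 2.11-fold higher in liver (1190 ± 76.8 CPM in liver, 563 ± 24.9 CPM in uterus), complex V 1.55-fold (5794 ± 317 and 3745 ± 330 CPM), complex III 1.33-fold (3166 ± 110 and 2388 ± 166 CPM) and complex I 1.23-fold (6778 ± 208 and 5503 ± 558 CPM). In these 4 complexes the lowest liver library lay above the highest uterus library. Complex IV had 3597 ± 206 CPM in liver and 3640 ± 183 CPM in uterus, a ratio of 0.99, and its libraries overlapped. In bulk tissue, more cells rich in mitochondria and more such RNA per cell cannot be told apart.

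**Figure D1:**
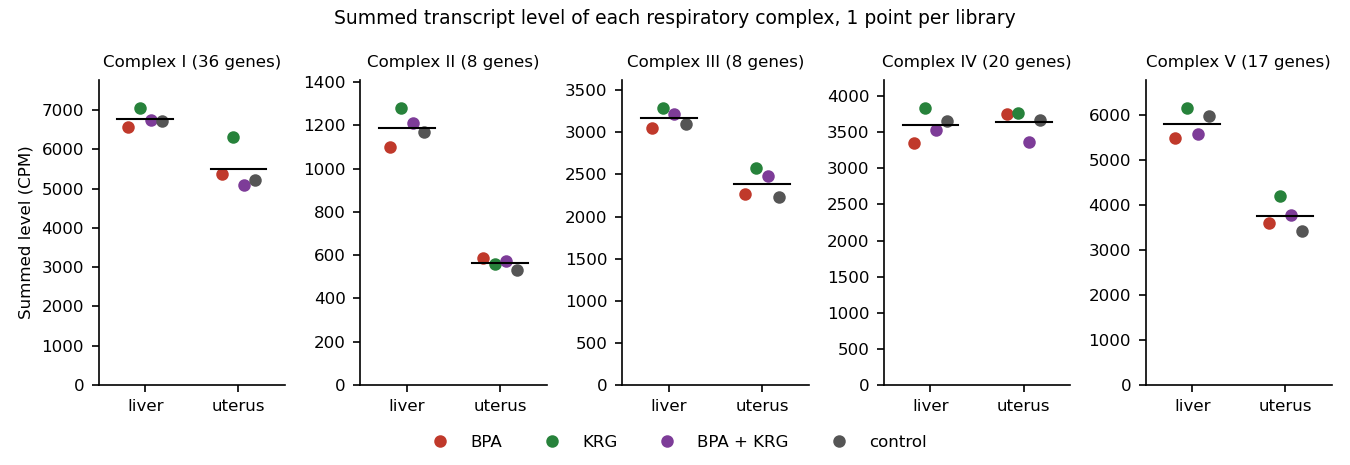
Summed transcript level of each complex in CPM, on linear axes from 0 that differ in scale, 1 point per library coloured by treatment, liver to the left of uterus, with the mean of 4 libraries as a line. Liver and uterus points are apart for complexes I, II, III and V and intermixed for complex IV (3597 CPM in liver and 3640 CPM in uterus on average).

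Scaling matters for this comparison. With column totals, the median gene of 13790 tested was lower in liver by 1.12 on the log2 scale (log2 fold change -1.12). Trimmed mean of M values (TMM) scaling, which sets the libraries so that most genes balance, moved that median to -0.18. The ratio of liver to uterus then became 2.49 for all 89 genes, 2.37 for complex I, 4.08 for complex II, 2.55 for complex III, 1.91 for complex IV and 2.98 for complex V. Relative to the median gene, the genes of oxidative phosphorylation stood 1.51 log2 units higher in liver with column totals and 1.5 with TMM.

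A gene was tested when its mean over the 8 libraries reached 1 CPM, which 85 of the 89 did. Cox4i2, Cox7b2, Cox8c and Sdhaf3 did not, and Cox8c had no count in any library. In edgeR's quasi-likelihood test with treatment as a block and p-values adjusted over all genes tested (Benjamini-Hochberg), 37 of the 85 were higher and 7 lower in liver at an adjusted p under 0.05. Over all genes, 15% were called higher and 63.6% lower. The median log2 fold change of the 85 was 0.38, against -1.12 for all genes. Without a model, all 4 liver libraries lay above all 4 uterus libraries for 42 of the 85 genes, as for 14.5% of all genes, and below them for 8, as for 62.6% of all genes. TMM scaling gave 75 higher and 3 lower (30.6% and 38.1% of all genes) and DESeq2 79 higher and 3 lower (33.7% and 38.4%). The 37 genes called higher with column totals were called higher with all 3 methods, and Cox6b2, Cox8b and Cox7a2l were called lower with all 3. The other 4 of the 7 lower genes, Ndufc2, Uqcrh, Cox6c and Atp5g2, had positive fold changes with TMM and DESeq2. By complex, from I to V, TMM called 36 of 36, 6 of 7, 7 of 8, 11 of 17 and 15 of 17 genes higher and DESeq2 36, 7, 8, 12 and 16; both called 3 lower in complex IV and 0 in the others. The counts by complex below are those with column totals.

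**Figure D2:**
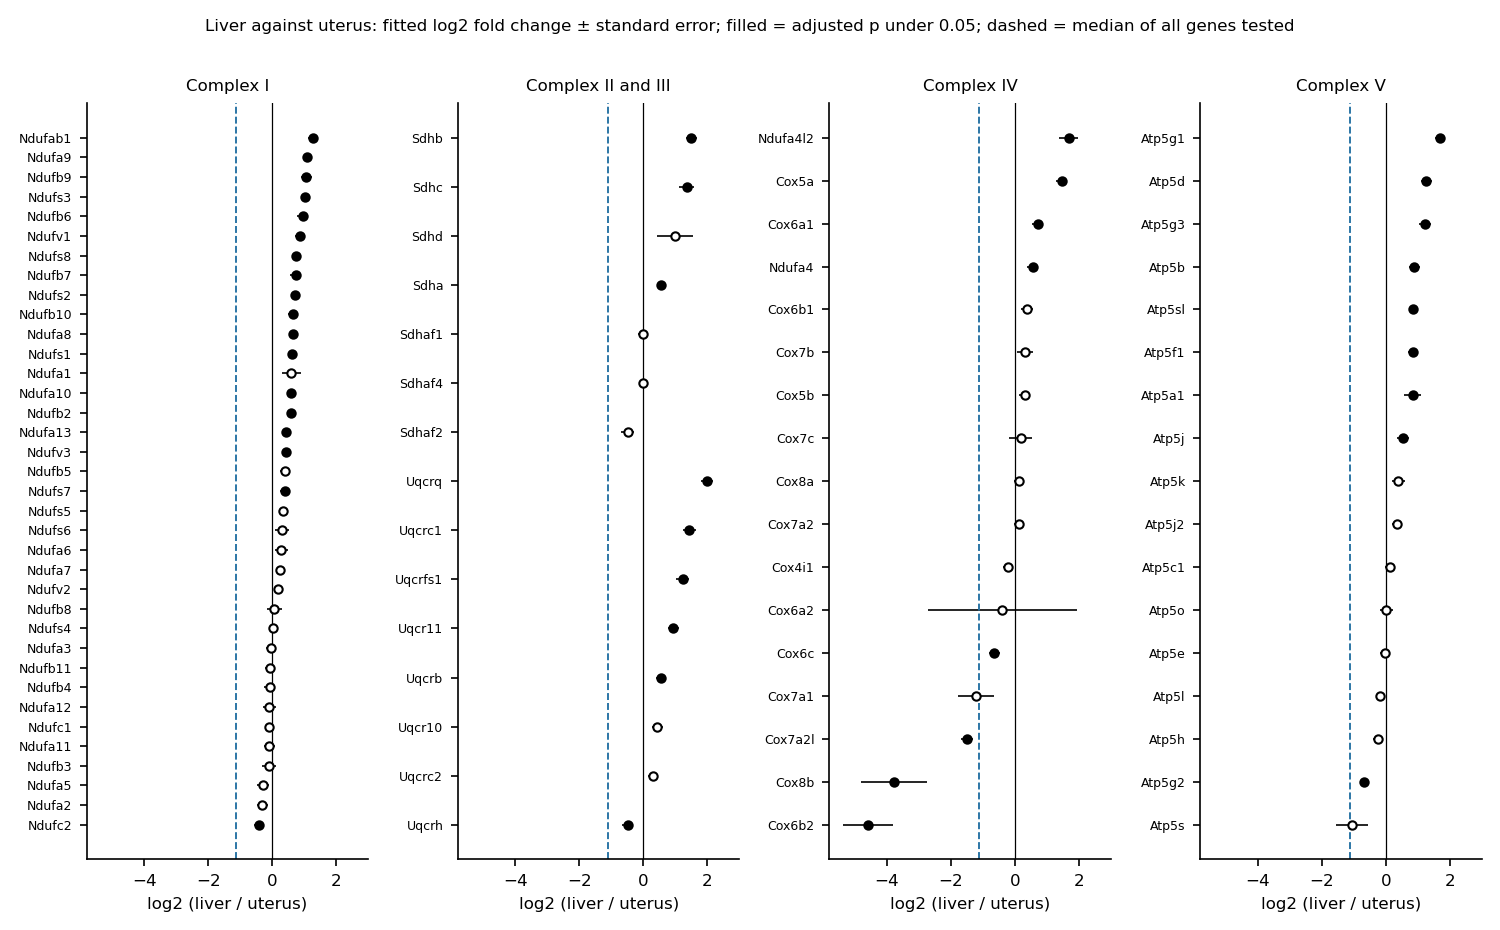
Fitted log2 fold change of liver over uterus with its standard error for the 85 genes tested, by complex, column totals. Filled points passed an adjusted p of 0.05, and the dashed line marks the median of all genes (-1.12), to the left of all genes but Cox6b2, Cox8b, Cox7a2l and Cox7a1.

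In complex I, 17 of 36 genes were higher in liver and 1, Ndufc2, was lower. Of the 7 core subunits, the conserved part that carries the flavin and the iron-sulfur clusters, 6 were higher and 0 lower (median log2 fold change 0.72); of the 29 accessory subunits 11 were higher and 1 lower (median 0.31). With TMM or DESeq2 all 7 core and all 29 accessory subunits were called higher. Ndufs3, a core subunit, had 84.2, 99.0, 84.6 and 92.5 CPM in liver with BPA, KRG, both and neither, against 42.0, 46.5, 45.0 and 41.8 CPM in uterus. The liver values were all well above those of uterus (log2 fold change 1.04 ± 0.12 SE, edgeR adjusted p = 0.00043). Ndufv1, which binds NADH, was likewise apart, with 133, 122, 109 and 110 CPM in liver, against 62.9, 65.8, 70.6 and 61.6 CPM in uterus (0.86 ± 0.14, adjusted p = 0.00166). The one core gene that did not pass was Ndufv2, with 99.0 ± 10.4 CPM in liver and 87.6 ± 7.18 CPM in uterus (SD, n = 4 each, adjusted p = 0.258).

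Among accessory subunits Ndufab1, the mitochondrial acyl carrier protein, had the largest fold change (1.26 ± 0.16, adjusted p = 0.000536), at 27.5 ± 2.33 CPM in liver and 11.6 ± 2.29 CPM in uterus. It has a named pseudogene, and how the counting treated reads with several matches is not given in the sources used here. Ndufb9, among the 3 most abundant genes of the complex, had 786, 845, 725 and 752 CPM in liver with BPA, KRG, both and neither, against 359, 391, 346 and 390 CPM in uterus (1.07 ± 0.17, adjusted p = 0.00145). The other 2 of those 3 did not pass the test: Ndufa6 averaged 661 ± 53.0 CPM in liver and 542 ± 74.6 CPM in uterus, and Ndufa2 496 ± 36.1 CPM in liver and 618 ± 97.9 CPM in uterus. Ndufa2 overlaps Tmco6 on the opposite strand at its 3' end. Ndufc2 averaged 65.7 ± 4.64 CPM in liver and 88.3 ± 8.90 CPM in uterus (-0.42 ± 0.13, adjusted p = 0.0223), and its sign turned with TMM (0.52, adjusted p = 0.00891).

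In complex II, succinate dehydrogenase, 3 of the 4 catalytic and anchor subunits were higher in liver. Sdhb, the iron-sulfur subunit on chromosome 4 (chr4:140961203-140979193, GRCm38), had 528, 559, 558 and 445 CPM in liver with BPA, KRG, both and neither, against 186, 175, 189 and 186 CPM in uterus. The lowest liver value was more than double the highest of uterus (1.5 ± 0.17, adjusted p = 0.000388). Sdhc, a membrane anchor, had 264, 396, 330 and 385 CPM in liver and 148, 130, 157 and 104 CPM in uterus (1.35 ± 0.23, adjusted p = 0.00201). Sdha, the flavoprotein, differed less, with 247 ± 5.33 CPM in liver and 168 ± 14.4 CPM in uterus (0.56 ± 0.15, adjusted p = 0.0126). The other anchor, Sdhd, was counted at far lower levels than its partners, 2.62, 9.59, 9.30 and 16 CPM in liver and 5.47, 2.46, 5.14 and 4.03 CPM in uterus, and did not pass (adjusted p = 0.143). The assembly factors Sdhaf1, which helps insert the iron-sulfur clusters into Sdhb, and Sdhaf4, which chaperones Sdha, had log2 fold changes of -0.01 and -0.01. Sdhaf2, which attaches the flavin to Sdha, had one of -0.50 (edgeR adjusted p = 0.0636), and none passed the test with column totals. With TMM the values were 0.93, 0.93 and 0.44, and Sdhaf1 and Sdhaf4 were called higher. DESeq2 called Sdhaf1, Sdhaf4 and Sdhaf2 higher.

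In complex III, 5 of 8 genes were higher in liver and 1, Uqcrh, was lower. Uqcrq, a small subunit on chromosome 11 (chr11:53427922-53430831), showed the largest positive fold change of the 85 genes tested. It had 562, 586, 653 and 604 CPM in liver with BPA, KRG, both and neither, against 136, 183, 152 and 141 CPM in uterus (1.99 ± 0.18, adjusted p = 0.000164). Uqcrc1, a core protein, had 154, 163, 148 and 163 CPM in liver and 58.4, 48.2, 82.7 and 49.2 CPM in uterus (1.43 ± 0.20, adjusted p = 0.00091). Uqcrfs1, the Rieske iron-sulfur protein, averaged 325 ± 65.8 CPM in liver and 137 ± 15.8 CPM in uterus (1.23 ± 0.20, adjusted p = 0.00165). Uqcrh, the hinge protein and the most abundant gene of the complex, ran the other way with column totals, at 850, 892, 910 and 772 CPM in liver and 1083, 1340, 1228 and 1171 CPM in uterus (-0.49 ± 0.18, adjusted p = 0.0415). It has named pseudogenes, and its sign turned with TMM and DESeq2. Uqcr10, a small subunit second in abundance, had 457 ± 22.7 CPM in liver and 340 ± 51.2 CPM in uterus (adjusted p = 0.0503).

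In complex IV, with column totals, 4 of 17 genes tested were higher and 4 lower in liver (11 and 3 with TMM, 12 and 3 with DESeq2). The higher ones were Cox5a, Cox6a1, Ndufa4 and Ndufa4l2. Cox5a, a subunit on the matrix side of cytochrome oxidase, had 338, 318, 319 and 316 CPM in liver with BPA, KRG, both and neither, against 100, 114, 145 and 111 CPM in uterus (1.47 ± 0.17, adjusted p = 0.000449). Ndufa4l2, a paralog of Ndufa4 known as a hypoxia target, was low in both tissues, at 7.76 ± 1.11 CPM in liver and 2.54 ± 1.21 CPM in uterus (1.69 ± 0.29, adjusted p = 0.0022), and overlaps Shmt2 on the opposite strand. Of the 3 most abundant genes of the complex, Cox6b1 did not differ beyond the test (547 ± 60.7 CPM in liver, 417 ± 61.4 CPM in uterus, adjusted p = 0.0911), and Cox6c and Cox7a2l were lower in liver. Cox6c had 457, 474, 434 and 396 CPM in liver, against 797, 625, 602 and 723 CPM in uterus (-0.64 ± 0.18, adjusted p = 0.0181). Its call was lost without the BPA or the control library of either tissue, and it overlaps Vps13b on the opposite strand.

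Cox7a2l, also called Scaf1, links complexes III and IV in supercomplexes. It had 219, 229, 228 and 208 CPM in liver with BPA, KRG, both and neither, against 623, 654, 510 and 697 CPM in uterus. Every uterus library thus held more than double the level of every liver library (-1.48 ± 0.18, adjusted p = 0.000539; -0.54 with TMM, adjusted p = 0.0434). The related subunit Cox7a2 averaged 287 ± 26.5 CPM in liver and 262 ± 24.2 CPM in uterus and did not pass the test (adjusted p = 0.438). Without Cox7a2l and Ndufa4l2, the 18 subunits of complex IV had a liver to uterus ratio of 1.12.

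Several complex IV subunits have a widely expressed gene and a tissue isoform, and the widely expressed gene dominated each pair in each library. Cox8b, the striated muscle and brown fat isoform of Cox8a, had 0, 3.70, 0 and 1.44 CPM in liver with BPA, KRG, both and neither, against 13.8, 13.5, 9.66 and 8.67 CPM in uterus (-3.77 ± 1.04, adjusted p = 0.0153). It made up at most 0.927% of the Cox8a and Cox8b counts in a liver library and 2.55% to 4.07% in uterus. Cox6b2, known as the testis isoform of Cox6b1, had 0.0771, 0.343, 0.242 and 0 CPM in liver and 5.83, 2.69, 3.58 and 4.11 CPM in uterus, or at most 0.0562% of the pair in liver and 0.559% to 1.25% in uterus (-4.57 ± 0.78, adjusted p = 0.00208). Fitted fold changes of genes at 0 in some libraries depend on the prior count of the fit. Cox7a1, the heart and muscle isoform, reached 0.771 to 4.32 CPM in liver and 4.23 to 7.91 CPM in uterus; these groups overlapped and the adjusted p was 0.0876. Cox4i2, the lung isoform of Cox4i1, had 0 counts in all 4 liver libraries, which allows a share of at most 0.0872% of the pair at 3 counts per library, and 2 to 5 counts in the uterus libraries. Such intervals and limits address counting error only.

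The promoters of 2 of these pairs are shown because the tissue isoform and its widely expressed partner differ widely in level, together with that of Uqcrc1, the gene with the largest tissue fold change among the tested genes whose promoter held an NRF1 motif. Each runs from 250 bases before to 50 bases after the start in RefSeq (GRCm38.p6), 5' to 3' on the gene's strand. Capitals mark the motifs searched on both strands: NRF1 (GCGCA, any base, then GCGC), ETS (CCGGAAG) and the E-box (CANNTG), which do not overlap each other in these 5 sequences. They lie at chr7:30183921-30184220 (plus strand, Cox7a1), chr9:79759804-79760103 (minus, Cox7a2), chr7:140900397-140900696 (minus, Cox8b), chr19:7217567-7217866 (minus, Cox8a) and chr9:108936398-108936697 (plus, Uqcrc1).
Cox7a1: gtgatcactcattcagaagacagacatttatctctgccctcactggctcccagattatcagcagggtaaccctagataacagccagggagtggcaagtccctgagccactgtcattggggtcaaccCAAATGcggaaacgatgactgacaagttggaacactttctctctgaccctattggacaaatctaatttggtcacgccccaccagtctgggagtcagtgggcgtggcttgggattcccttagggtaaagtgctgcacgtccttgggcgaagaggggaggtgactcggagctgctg
Cox7a2: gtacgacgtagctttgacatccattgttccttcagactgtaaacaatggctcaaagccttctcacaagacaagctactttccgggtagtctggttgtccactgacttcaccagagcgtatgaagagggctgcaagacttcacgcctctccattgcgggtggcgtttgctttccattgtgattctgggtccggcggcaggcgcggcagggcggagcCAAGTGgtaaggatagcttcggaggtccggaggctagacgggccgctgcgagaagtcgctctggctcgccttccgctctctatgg
Cox8b: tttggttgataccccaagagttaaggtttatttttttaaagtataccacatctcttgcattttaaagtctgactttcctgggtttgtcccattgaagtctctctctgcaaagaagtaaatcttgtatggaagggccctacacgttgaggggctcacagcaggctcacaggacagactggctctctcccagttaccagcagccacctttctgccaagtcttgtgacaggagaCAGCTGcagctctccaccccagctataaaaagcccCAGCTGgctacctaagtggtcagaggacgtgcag
Cox8a: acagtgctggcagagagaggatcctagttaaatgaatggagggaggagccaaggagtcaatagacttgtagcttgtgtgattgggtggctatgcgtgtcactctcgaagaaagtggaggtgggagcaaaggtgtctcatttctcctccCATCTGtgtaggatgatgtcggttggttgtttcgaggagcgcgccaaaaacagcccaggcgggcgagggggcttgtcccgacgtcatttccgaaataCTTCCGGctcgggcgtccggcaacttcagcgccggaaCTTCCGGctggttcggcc
Uqcrc1: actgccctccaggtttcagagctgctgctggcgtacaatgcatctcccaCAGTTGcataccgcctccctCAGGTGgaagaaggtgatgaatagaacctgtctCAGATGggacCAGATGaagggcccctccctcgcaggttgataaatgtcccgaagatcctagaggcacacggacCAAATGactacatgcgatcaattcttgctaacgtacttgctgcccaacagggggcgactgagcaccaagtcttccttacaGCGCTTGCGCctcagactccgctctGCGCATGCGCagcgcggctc
Cox8a held 2 ETS motifs and 1 E-box, Cox8b 2 E-boxes, and Cox7a1 and Cox7a2 1 E-box each, while Uqcrc1 held 2 NRF1 motifs and 5 E-boxes. NRF1 and the ETS factor GABP are known regulators of respiratory genes. Of the 71 genes with a promoter in the table, 19 (26.8%) held the NRF1 motif in at least 1 promoter, against 4.60% of all 32851 promoters. The ETS motif stood in 19 genes (26.8%), against 8.86% of all promoters, and the E-box in 49 (69.0%), against 72.3%. Shares of the 71 are by gene and those of all promoters by single promoter, so their units differ. GC content was not matched. By complex the NRF1 motif stood in 7 of 32 genes of complex I, 4 of 7 of complex II, 1 of 5 of complex III, 1 of 14 of complex IV and 6 of 13 of complex V. The median log2 fold change was 0.30 over the 18 tested genes with it and 0.40 over the 51 without it, and 0.46 over the 18 with the ETS motif and 0.31 over the 51 without.

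In complex V, 8 of 17 genes were higher in liver and 1, Atp5g2, was lower. Of the catalytic F1 head, Atp5b, the beta subunit, had 539, 599, 561 and 560 CPM in liver with BPA, KRG, both and neither, against 283, 355, 317 and 276 CPM in uterus (0.88 ± 0.16, adjusted p = 0.00303). Atp5d, the delta subunit, averaged 408 ± 16.8 CPM in liver and 173 ± 31.1 CPM in uterus (1.25 ± 0.17, adjusted p = 0.000874), and Atp5a1, the alpha subunit, 655 ± 137 CPM in liver and 369 ± 77.8 CPM in uterus (0.83 ± 0.27, adjusted p = 0.03). Atp5c1 and Atp5e, the gamma and epsilon subunits, did not pass. In the peripheral stalk, Atp5o had 481 ± 8.23 CPM in liver and 486 ± 111 CPM in uterus (adjusted p = 0.959).

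Subunit c, which forms the rotor ring, is encoded by 3 genes with the same mature protein. Atp5g3 was the most abundant of the 89 genes in liver, at 1714, 1867, 1714 and 1960 CPM with BPA, KRG, both and neither, against 702, 851, 894 and 682 CPM in uterus (1.22 ± 0.20, adjusted p = 0.00172). Atp5g1 was likewise higher, at 79.2, 52.7, 53.2 and 45.6 CPM in liver and 18.5, 15.5, 18.7 and 17.5 CPM in uterus (1.69 ± 0.16, adjusted p = 0.000214). Atp5g2 ran the other way with column totals, at 45.7, 48.0, 54.2 and 49.6 CPM in liver and 83.8, 77.5, 80.1 and 75.2 CPM in uterus (-0.68 ± 0.12, adjusted p = 0.00267), but 0.26 with TMM and 0.32 with DESeq2. As a share of the 3 genes, which does not depend on scaling, Atp5g2 took 2.41% to 2.98% of subunit c counts in liver and 8.07% to 10.4% in uterus, Atp5g3 93.2% to 95.4% in liver and 87.3% to 90.1% in uterus, and Atp5g1 2.22% to 4.31% in liver and 1.65% to 2.30% in uterus. The Atp5g2 and Atp5g3 shares of the tissues did not overlap, and those of Atp5g1 did. Atp5sl, no subunit, was higher in liver at 31.4 ± 2.06 CPM, against 17.5 ± 2.95 CPM in uterus (0.86 ± 0.14, adjusted p = 0.00184), and Atp5s had 1.22 ± 0.74 CPM in liver and 2.48 ± 1.00 CPM in uterus (adjusted p = 0.0875).

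Genes around the respiratory chain differed in the same comparison as follows, with column totals first. Among all genes tested, 15% were higher and 63.6% lower with column totals (median -1.12), and 30.6% and 38.1% with TMM (median -0.18). Of 16 genes of mitochondrial beta oxidation, which feeds electrons to the chain from fatty acids, 14 were higher and 1 lower in liver (median log2 fold change 1.54). Of 18 genes of the TCA cycle 8 were higher and 3 lower (median 0.37), and of 18 tested genes of glycolysis 7 were higher and 9 lower (median -0.89). Of 13 complex I assembly factors 6 were higher and 1 lower (median 0.50), and of 24 for complexes III, IV and V 2 were higher and 3 lower (median 0.08). Of 16 regulators of mitochondrial biogenesis 1 was higher and 5 lower (median -0.27), and of 17 genes of mitochondrial protein import 5 were higher and 6 lower (median 0.07). The direction of several lists depended on scaling. With TMM, 8 regulators of biogenesis were higher and 2 lower (median 0.67), 12 import genes were higher and 2 lower (1.01), and 21 assembly factors of complexes III, IV and V were higher and 0 lower (1.02). Glycolysis had 8 higher and 6 lower (0.05), the TCA cycle 15 and 0 (1.31), beta oxidation 15 and 0 (2.48), and complex I assembly factors 12 and 0 (1.44). The median of each list had the same sign with DESeq2 as with TMM. Of 6 further nuclear genes of the system 3 were higher and 2 lower: Cyc1, cytochrome c1 of complex III, had 95.5, 110, 108 and 110 CPM in liver with BPA, KRG, both and neither, against 45.9, 41.0, 44.3 and 34.7 CPM in uterus. Atpif1, an inhibitor of the ATP synthase, had 31.8, 42.1, 42.8 and 41.2 CPM in liver, against 231, 201, 195 and 214 CPM in uterus (-2.42 ± 0.18, adjusted p = 8.95e-05). Of the ATP/ADP carriers, Slc25a4, the muscle isoform, was at 8.79 to 42.7 CPM in liver and 382 to 424 CPM in uterus, while Slc25a5 was at 128 to 175 CPM in liver and 41.6 to 82.5 CPM in uterus.

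The spread over the 4 treatments within a tissue was also measured, without matching genes on abundance. Among the genes averaging at least 10 CPM in the tissue, the highest library exceeded the lowest by less than 1.5-fold for 69 of 78 genes of oxidative phosphorylation in liver (88.5%, against 69.5% of all 6709 genes) and for 60 of 79 in uterus (75.9%, against 52.9% of all 9198 genes). The median ratio of the highest to the lowest library was 1.19 in liver and 1.32 in uterus for these genes, against 1.35 and 1.47 for all genes.

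The effect of each agent was fitted over all 8 libraries with BPA and KRG as additive terms within each tissue, which leaves 2 residual degrees of freedom and counts any interaction of the agents as error. With edgeR's quasi-likelihood test 0 of the 85 genes passed an adjusted p of 0.05 for BPA in liver, BPA in uterus, KRG in liver or KRG in uterus. At an unadjusted p under 0.05 there were 5, 5, 0 and 1 in the same order, against 4.8%, 13.1%, 3.5% and 4.45% of all genes. Over all genes the adjusted test called 0, 457 (3.31%), 0 and 0. DESeq2 called 2 of the 85 for BPA in liver, both lower (0.189% of all genes were called lower), and 0 for the others (4.96%, 0.283% and 0.392% of all genes). In simulated data this edgeR fit recovered 20% of genes changed 2-fold and 100% of those changed 4-fold for BPA in liver. Those data had the same preset dispersion for every gene and no tissue difference, so these shares are not the power for the 85 genes. The median standard error of a log2 fold change was 0.19 for each agent in each tissue.

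Over the 85 genes the median log2 fold change with BPA was -0.02 in liver (all genes -0.03) and 0.00 in uterus (all genes 0.04). With KRG it was 0.09 in liver (all genes 0.07) and 0.11 in uterus (all genes -0.08). Whether an effect differed between the tissues was tested as an interaction: 0 of 85 passed for BPA, where 1.94% of all genes did, and 0 for KRG, where 0% did (edgeR). At an unadjusted p under 0.05 there were 5 for BPA (10.6% of all genes) and 1 for KRG (4.89%). DESeq2 called 2 for BPA, both lower (1.09% of all genes lower), and 0 for KRG (0.225%).

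The genes at an unadjusted p under 0.05 for BPA in liver were all lower: Cox8b, Cox6a2, Cox7a1, Atp5j and Atp5a1. The first 3 are the striated muscle isoforms. Cox6a2, the muscle isoform of Cox6a1, had 0 CPM with BPA, 9.18 with KRG, 0.0808 with both and 4.05 in control in liver, and 1.82 with BPA, 0.231 with KRG, 13.2 with both and 1.05 in control in uterus. Its order of libraries in liver was also that of the 10 skeletal muscle markers except for the lowest pair, both near 0 with BPA and with both agents, and in uterus it was the same for the markers (222, 91.3, 1788 and 112 CPM). In the liver library with both agents, 6 of the 10 markers, among them Ckm and Mb, were at 0, and in that with BPA 2, Tnnt3 and Myh1, were. Cox8b in liver followed the same order, while in uterus, at 8.67 to 13.8 CPM, it did not. Cox7a1 did not follow the marker order in liver (0.771, 3.56, 2.42 and 4.32 CPM with BPA, KRG, both and neither). In uterus it did (7.21, 4.23, 7.91 and 4.71 CPM). The part of skeletal muscle RNA in these values was not tested. Cox6a2 overlaps Itgad on the opposite strand. DESeq2 called Cox8b (adjusted p = 0.00425) and Cox6a2 (adjusted p = 0.00935) for BPA in liver, and both again in the interaction; edgeR gave adjusted p = 0.634 and 0.778 for BPA in liver.

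**Figure D3:**
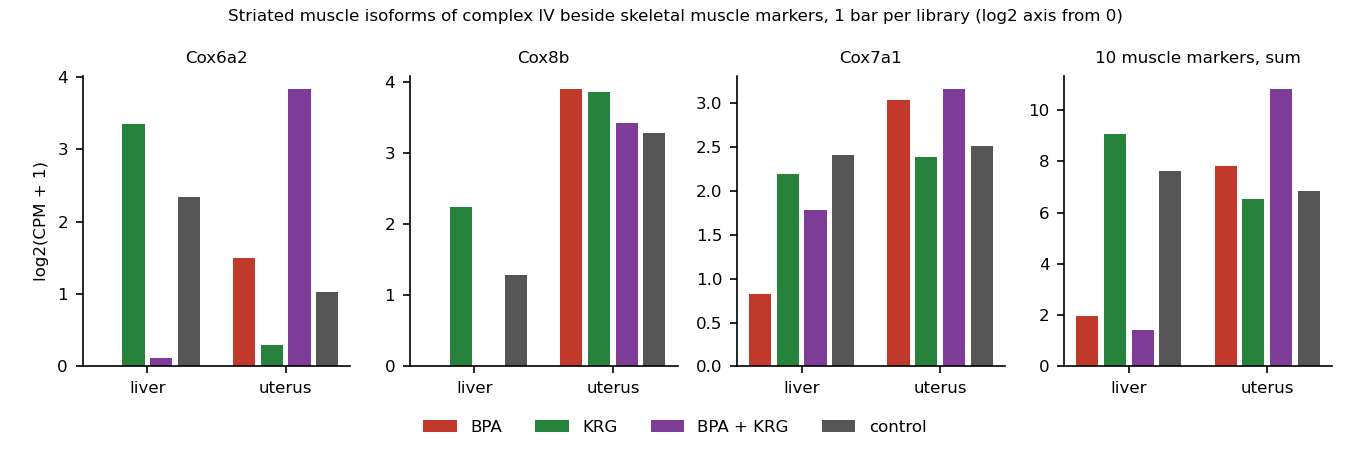
Cox6a2, Cox8b, Cox7a1 and the sum of 10 skeletal muscle markers in each library on a log2(CPM + 1) axis, liver to the left of uterus, treatments by colour. Cox6a2 is high in the liver libraries (KRG 9.18 CPM, control 4.05 CPM) and the uterus library (both agents 13.2 CPM) in which the marker sum is highest for the tissue.

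Between single libraries, which have no replicate check, a ratio of (CPM + 1) of at least 1.5 was used, for genes averaging at least 10 CPM in the tissue. In liver, 6 of 78 genes were lower and 1 higher with BPA than in control, against 10.6% and 3.31% of all genes. With TMM or DESeq2 size factors 4 were lower and 1 higher, and Atp5a1 and Ndufb3 were no longer past 1.5-fold. Ndufa1, an X-linked accessory subunit of complex I (chrX:37187588-37191163), had 98 CPM with BPA, 203 with KRG, 187 with both and 266 in control. Its BPA library was 2.72-fold below control (95% exact counting interval 2.55 to 2.90). Cox7c of complex IV had 115 CPM with BPA, 280 with KRG, 244 with both and 307 in control, 2.68-fold below control (2.52 to 2.84). In both genes the BPA library stood apart below the other 3. Atp5j, coupling factor 6 of the stalk, had 67.8 CPM with BPA, 115 with KRG, 99.7 with both and 123 in control.

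The remaining lower genes were Atp5a1 (501 CPM with BPA, 746 with KRG, 582 with both, 792 in control), Ndufb3, an accessory subunit of complex I (258, 401, 341 and 416 CPM in the same order), and Sdhaf2 (9.17, 11.6, 10.3 and 15.6 CPM). In each of the 6 genes, which were chosen by the ratio of these 2 libraries, the BPA library was the lowest and the control library the highest. Sdhd, below the 10 CPM limit, had the same extremes. Usmg5, a small ATP synthase subunit outside the symbols chosen, had 70.2 CPM with BPA, 143 with KRG, 113 with both and 143 in control. The gene higher with BPA was Atp5g1, at 79.2 CPM with BPA, 52.7 with KRG, 53.2 with both and 45.6 in control, 1.74-fold (1.58 to 1.92). With both agents, 0 of 78 genes were past 1.5-fold against control (3.32% of all genes higher, 4.07% lower) and 0 against KRG alone (6.42% higher, 3.86% lower). Against BPA alone, 2 were higher, Ndufa1 and Cox7c (9.52% of all genes), and 0 lower (3.29%). With TMM or DESeq2 size factors, or with Rn45s left out of totals, 2 were lower, Atp5g1 and Ndufb8. The ratio to BPA alone shares the BPA library with those above. In both of the pairs that differ by BPA (BPA against control, both against KRG), 0 genes passed 1.5-fold the same way in liver, where 0.566% of all genes were higher in both pairs and 0.894% lower, and 0 in uterus, where 5.32% were higher and 2.08% lower. The last 300 transcript bases had a GC content of 34.7% to 44% (median 39.5%) in the 6 lower genes and 29.3% to 63.7% (median 47.3%) in 71 others. The BPA liver library also held the most erythroid marker RNA (7343 CPM with BPA, 5396 with KRG, 1780 with both and 3744 in control) and acinar marker RNA (1537, 153, 183 and 239 CPM, nearly all Cela1 outside the BPA library). The part of erythroid and acinar RNA in these values was not tested.

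With KRG against control in liver, 0 of 78 genes were past 1.5-fold in either direction, against 3.37% higher and 4.72% lower among all genes. The median log2 ratio was 0.10, with 55 of 78 above 0, against -0.05 for all genes. In the other liver pair that differs by KRG, both agents against BPA, the median was 0.05, against 0.12 for all genes. There 48 of 78 were above 0. The KRG library held the highest level of the 4 for 34 of the 78 genes, as for 20.9% of all genes. Its difference from control was largest for Cox5b, which was lower, at 110 CPM with BPA, 73.7 with KRG, 110 with both and 108 in control.

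**Figure D4:**
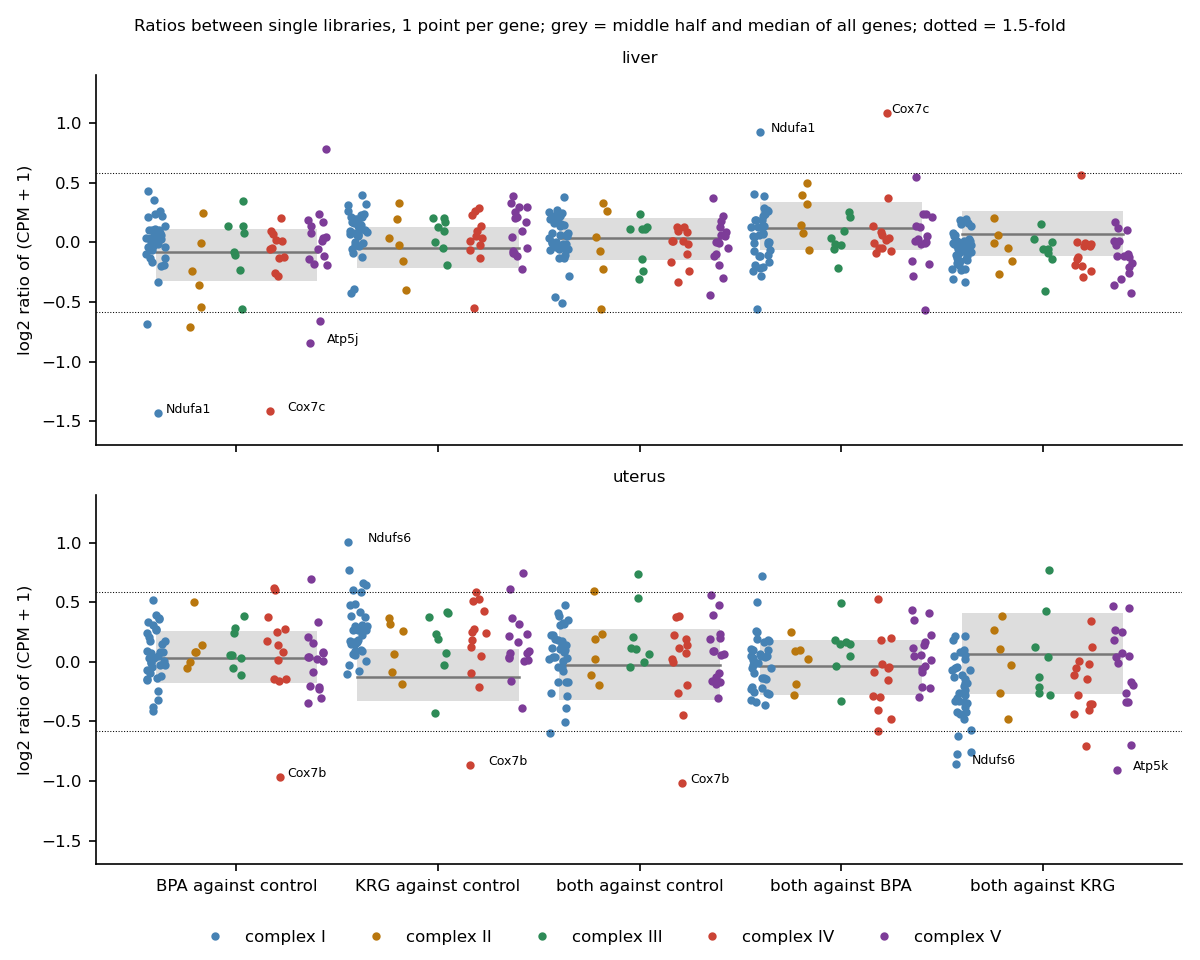
Log2 ratios of (CPM + 1) between 2 single libraries for each gene averaging at least 10 CPM, coloured by complex, liver above uterus, with the interquartile range (grey) and median of all genes and dotted lines at 1.5-fold. Most genes lie within 1.5-fold; Ndufa1 and Cox7c lie lowest in liver with BPA, Cox7b lies lowest in each uterus ratio to control, and most genes of complex I lie above the grey band in uterus with KRG.

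With KRG against control in uterus 8 of 79 genes were higher and 1 lower, against 5.83% and 7.74% of all genes (14 past 1.5-fold in place of 9 with TMM or DESeq2 scaling), and the median log2 ratio was 0.22, against -0.12 for all genes. Of the 79, 67 had a ratio above 1, and 33 of 36 in complex I. In the other uterus pair that differs by KRG, both agents against BPA, the median was 0.02 (all genes -0.04). There 41 of 79 were above 1, and 18 of 36 in complex I. The KRG library held the highest level of the 4 uterus libraries for 41 of the 79 genes, as for 18.5% of all genes, and the control library the lowest for 37, as for 16.6%. Ndufs6, an accessory subunit of complex I near its zinc site (chr13:73319838-73328542), had 115 CPM with BPA, 218 with KRG, 120 with both and 108 in control, 2.02-fold above control (1.89 to 2.15). The other 3 libraries lay within 108 to 120 CPM. Atp5k, the e subunit of the ATP synthase, had 191, 396, 211 and 236 CPM in the same order, and Ndufb8, an accessory subunit, 482, 614, 400 and 388 CPM. The further 5 higher genes were Ndufb6, Ndufab1, Atp5o, Ndufa11 and Ndufa3, at 1.51 to 1.73-fold. Of these 8, Ndufb6 and Ndufa3 overlap a gene on the opposite strand, and Ndufab1 and Atp5k have named pseudogenes.

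The adipocyte markers moved with this library: all 8 were higher with KRG than in each of the other 3 uterus libraries, and their sum was 13051 CPM, against 5687 CPM in control. Fabp4 had 2440 CPM with BPA, 5931 with KRG, 2673 with both and 1921 in control. The sum of the 10 hepatocyte markers was also highest in this library (378 CPM with BPA, 2178 with KRG, 509 with both and 1247 in control), as was that of the neutrophil markers (327, 1489, 285 and 1142 CPM). Among the neutrophil markers Ltf went the other way, at 811 CPM in control and 212 with KRG, while each of the others was highest with KRG. The brown adipocyte markers were lowest in this library (152, 68.2, 106 and 173 CPM). The part of RNA of these cell types in the levels of the oxidative phosphorylation genes was not tested. In the same pair, genes of the TCA cycle had a median log2 ratio of 0.35 with 2 of 18 past 1.5-fold higher (5.83% of all genes). Mitochondrial beta oxidation had one of 0.28 with 3 of 14 higher, and glycolysis one of 0.33 with 2 of 15 higher. The median was 0.07 for assembly factors of complexes III, IV and V (2 of 18 higher) and 0.00 for those of complex I (0 of 7). It was -0.05 for mitochondrial import (0 of 15) and -0.20 for regulators of biogenesis (0 of 10). Against KRG alone, the uterus library with both agents had 7 genes lower (11.1% of all genes) and 1 higher (16.5%); these ratios share the KRG library with those above. In both of the pairs that differ by KRG, 0 genes passed 1.5-fold the same way in uterus, where 0.478% of all genes were higher in both pairs and 1.13% lower, and 0 in liver (0.551% and 0.879%), so a count of 0 is near the share of all genes.

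With BPA against control in uterus 3 of 79 genes were higher (8.4% of all genes) and 1 lower (4.41%), or 2 in all with TMM or DESeq2 scaling. Atp5a1 had 463 CPM with BPA, 330 with KRG, 397 with both and 285 in control, 1.62-fold above control (1.56 to 1.69). Both libraries with BPA lay above both without it, whereas in liver Atp5a1 was lower in both libraries with BPA. Its interaction had a log2 difference of -0.99 ± 0.30 (liver minus uterus, edgeR adjusted p = 0.27, unadjusted p = 0.0145). Cox7c had 264, 190, 176 and 174 CPM with BPA, KRG, both and neither, and Cox8b was the third. Cox7b, an X-linked subunit of complex IV (chrX:106015700-106022450), had 208 CPM with BPA, 223 with KRG, 201 with both and 406 in control, so it was lower in each treated library than in the single control.

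With both agents against control in uterus, 2 genes were higher (11.3% of all genes) and 2 lower (11.5%). Uqcrc1 had 58.4 CPM with BPA, 48.2 with KRG, 82.7 with both and 49.2 in control, 1.68-fold above control (1.53 to 1.85), and Sdhc had 148, 130, 157 and 104 CPM. Cox7b and Ndufa5, an accessory subunit of complex I, were lower. Against BPA alone, 1 gene, Ndufa12, was higher (5.01%) and 0 lower (8.68%). In the additive fit for BPA in uterus, the genes at an unadjusted p under 0.05 were Uqcrc1 and Cox6a2, higher, and Ndufb4, Ndufa5 and Atp5k, lower, with adjusted p of 0.237 to 0.379. Ndufb4, an accessory subunit of complex I, had 65.7 CPM with BPA, 106 with KRG, 61.5 with both and 87.9 in control, and Ndufa5 had 323, 414, 279 and 422 CPM. For both genes the libraries with BPA lay below those without. The urothelial and skeletal muscle markers were also high in the uterus libraries with BPA (5926 and 10253 CPM, and 222 and 1788 CPM), and their part in these values was not tested. For KRG in uterus the single such gene was Ndufb7, an accessory subunit, at 93.6 CPM with BPA, 145 with KRG, 133 with both and 104 in control (0.49 ± 0.18, adjusted p = 1).

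**Figure D5:**
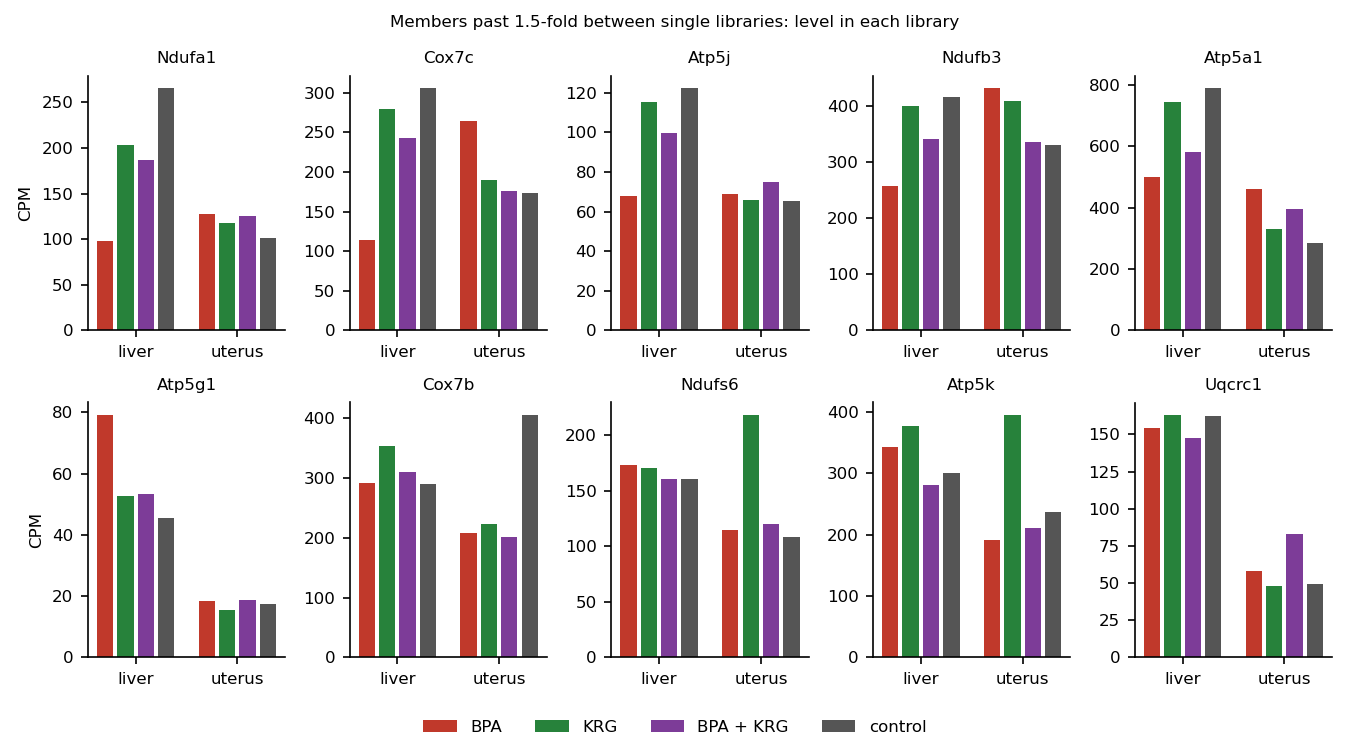
CPM in each library of 10 genes past 1.5-fold between single libraries, liver to the left of uterus, treatments by colour, bars from 0. Ndufa1, Cox7c, Atp5j, Ndufb3 and Atp5a1 are lowest in the BPA liver library, Cox7b is highest in the control uterus library, and Ndufs6 and Atp5k are highest in the KRG uterus library.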

How the data were processed

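The authors deposited unnormalized counts for each of 8 libraries, in a table of 23282 genes by symbol (44 symbols occur again on another line and stayed separate). Bowtie2, edgeR and mm10 appear, with neither role nor version, in the submitters' processing notes. How reads were counted, by strand or not and with several matches or not, is not given in the sources used here. From these counts, CPM of column totals were computed (Python 3.11.15, pandas 2.3.3). Tests used edgeR 4.0.16 and, as an alternative, DESeq2 1.42.0 in R 4.3.3, on the 13790 genes averaging at least 1 CPM over 8 libraries, with Benjamini-Hochberg adjustment over all of them; the scripts were tested on simulated data. Liver against uterus had treatment as a block (3 residual degrees of freedom), so its error is the spread between treatments, which may include treatment effects. Nothing says that libraries came from separate animals, so p-values measure only the spread between libraries. Counting intervals are exact Clopper-Pearson (95%).

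The members, the gene lists and the tests were chosen with earlier results of these data known. Named were the 3 most abundant genes of each complex, the 5 highest and 5 lowest called between tissues, the extreme 3 in each treatment fit and each pair of libraries, the isoform pairs and the genes that are not subunits; others named in a count or a list were chosen after their values were seen. Genes were located in GENCODE M21 (GRCm38, the build named mm10); 88 of 89 matched, and 8 overlap a gene on the opposite strand at the 3' end. Promoters came from RefSeq (71 of 89 matched). Alternatives were TMM and DESeq2 scaling, Rn45s left out of totals, filters of 1 and 10 CPM or none, pseudocounts of 0.25 and 5 CPM, subunits only, no treatment block, the tissue alone, and each library left out.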

Additional observations from a re-analysis of the deposited data

Results flagged for a closer look

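Over 102 groups of 4 libraries (a gene in a tissue), 6 held a library whose gap to its nearest neighbour took most of the range, by Dixon's test. Chance flags about 1 in 20 groups, but many of these genes were named for extreme ratios between single libraries, so that rate does not apply to them. In complex I, Ndufs6 in uterus stood at 218 CPM with KRG, against 108 to 120 CPM in the other 3. In complex IV, Cox7b in uterus stood at 406 CPM in control, against 201 to 223 CPM with the treatments. Cox5b, the subunit that binds zinc, was low at 73.7 CPM with KRG in liver, against 108 to 110 CPM in the others, and low at 70.2 CPM in control uterus, against 82.4 to 83.7 CPM with the treatments. Cox5a in liver was high at 338 CPM with BPA, against 316 to 319 CPM in the others, a difference of small size. Cox6a2 in uterus was high at 13.2 CPM with both agents, against 0.231 to 1.82 CPM in the others, in the library with the most skeletal muscle marker RNA.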

How the results depend on the processing

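No fit by replicate number could be made, since the labels give no such numbers; liver against uterus was blocked by treatment, and without that block 50 genes were called (42 higher, 8 lower) in place of 44. Liver against uterus depended on scaling: in place of the 37 higher and 7 lower genes, TMM gave 78 (75 and 3) and DESeq2 82 (79 and 3). Atp5g2 turned to 0.26 with TMM and 0.32 with DESeq2 and Cox6c to 0.31 and 0.37. With TMM the ratio of summed levels became 2.37, 4.08, 2.55, 1.91 and 2.98 for complexes I to V and 2.49 for all. Leaving out each library gave 35 to 41 calls, 30 to 37 higher and 4 to 6 lower. BPA in liver had 2 calls, both lower, with DESeq2, in place of 0. BPA in uterus had 0 to 1 calls, all higher, with a library left out, the 1 being Cox6a2 without the control or the BPA library. The BPA interaction had 2 calls, both lower, with DESeq2 or no filter, and 0 to 1 with a library left out.

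Between single libraries, the number past 1.5-fold changed as follows. With a filter of 1 CPM or none it was 11 for BPA against control in liver (7 at 10 CPM), 3 for KRG (0), 5 for both against control (0), 5 for both against BPA (2) and 3 for both against KRG (0); in uterus it was 7 for both against control (4), 3 for both against BPA (1) and 13 for both against KRG (8). TMM or DESeq2 size factors gave 5 for BPA against control (7), with Atp5a1 and Ndufb3 no longer past 1.5-fold, 1 for both against control and 4 for both against BPA in liver; in uterus they gave 2 for BPA against control (4 with column totals) and 14 for KRG against control (9), and for both against BPA 2 with TMM and 3 with DESeq2. A pseudocount of 0.25 CPM gave 1 for both against control in liver, and leaving out Rn45s gave 4 for both against BPA.

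With 1 library per group the residual spread rests on few degrees of freedom. For BPA in liver, 20% of genes changed 2-fold were recovered in simulated data, whose preset dispersion was not that of these genes.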
